A study of Mus musculus with 19 samples.

Results

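The genes described here carry a cell through mitosis, from the start of mitosis to the separation of the daughter cells. They form a list of named genes of the G2 and M phases of the cell cycle, drawn up with earlier results of these mice known. Of the 56 listed genes, 55 had values among the 24689 gene symbols of the data, and the remaining gene was not analysed here. All 55 genes passed the filter on low values, which kept 22745 genes that reached 0.1 TPM in 3 or more mice. TPM values are reads per gene corrected for gene length and scaled to 1000000 per mouse, so that levels of different genes can be compared.

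RNAseq was performed on whole tongue epithelia of 19 mice aged 8 to 16 weeks, dissected off the underlying muscle 15 days after transgene induction. The groups asked what the human papillomavirus oncogenes E6-E7 and a constitutively active YAP do to the epithelium, alone and together. The 5 E mice carry Krt14-CreERT, LSL-rtTA and tetON_E6-E7, the 3 Y mice Krt14-CreERT, LSL-rtTA and tetON_YAP1S127A, and the 6 EY mice all of these alleles. Of the 5 N (control) mice, 3 carry Krt14-CreERT and LSL-rtTA without an effector, N mouse 4 carries LSL-rtTA without Cre, and N mouse 5 carries Krt14-CreERT with both effectors but no rtTA. In its genotypes of the N, E, Y and EY groups, the paper also lists a tetON_H2B-GFP reporter. Tamoxifen injected into the tongue activates Cre in cells in which the Krt14 promoter is active, which are mainly basal cells, and doxycycline in the chow then switches on the effectors. The measured RNA also came from epithelial cells that the promoter does not reach. Between 8269674 and 11007304 reads per mouse lay behind the values, of which 8542 to 12326 fell on the 55 genes in N and 54389 to 77454 in EY epithelia.

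Entry into mitosis is driven by the kinase CDK1 bound to B-type and A-type cyclins. Chromosomes then condense, attach to spindle microtubules through the kinetochore built on the centromere, and separate once the anaphase-promoting complex has been switched on, after which the cell is cut into daughters by cytokinesis. Most of the genes are transcribed periodically, held down by the DREAM complex in resting cells and turned on in G2 by the MuvB core with B-MYB (Mybl2) and FOXM1, through a promoter element called CHR that often lies near CCAAT boxes bound by NF-Y. In stratified epithelium of the tongue, cell division takes place mainly in the basal layers.

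Promoters of the genes were searched for these elements in windows from 250 bases before to 50 bases after the gene start (RefSeq, GRCm38.p6). Windows were found for 46 of the 55 genes, 50 windows in all, and on both strands the search covered CHR (TTTGAA or TTTAAA), the NF-Y box (CCAAT), E2F (TTCCCGC or TTGGCGC) and TEAD (GGAATG). An NF-Y box read as ATTGG overlaps an E2F motif where CGC follows it. A CHR was found in 38 windows (76.0%), against 27.6% of all 32851 windows of the same length, and an NF-Y box in 36 (72.0%), against 37.4%. Both were present in 31 windows (62.0%), against 10.7% of all windows. An E2F motif was found in 24.0% (6.81% of all windows) and a TEAD motif in 6 of the 50 windows (14.7% of all windows). The median GC content was 59.0% in the windows of the mitotic genes and 52.7% in all windows. These matches describe the letters of the windows and are not measured binding sites.

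**Figure D1:**
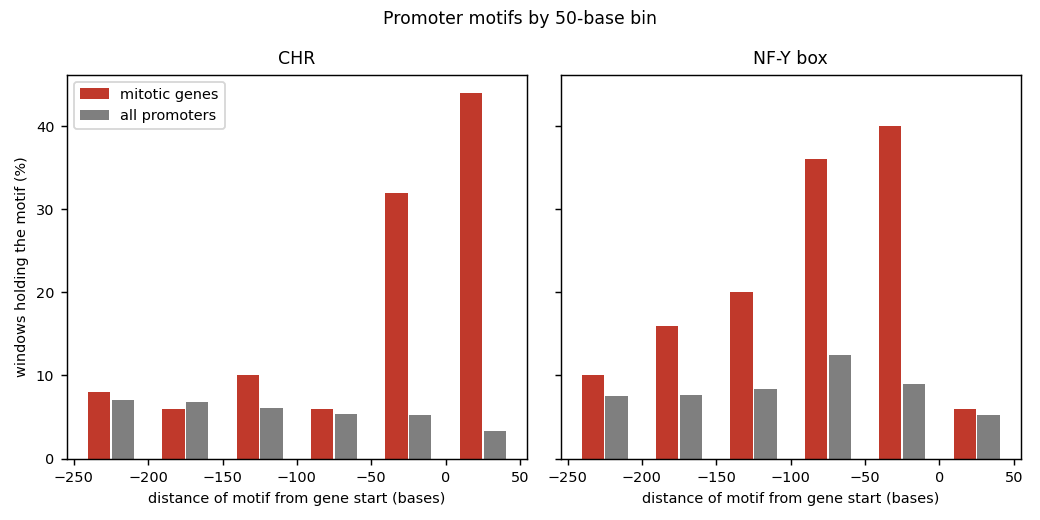
Share of promoter windows (y axis, percent) that hold a CHR (left) or an NF-Y box (right) in each bin of 50 bases, by distance from the gene start (x axis, bases), for 50 windows of mitotic genes (red) and all 32851 windows (grey). CHR matches of the mitotic genes are most frequent at the start, in 32.0% of windows in the bin before it and 44.0% in the bin after it. Each bin further upstream has them in 6% to 10% of windows. NF-Y boxes are most frequent in both bins of the 100 bases before the start.

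The upstream parts of 6 promoters are given here, chosen for holding both elements before the gene start. They belong to genes chosen as representatives of their roles, and other genes held both elements there as well. The 50 bases after the start, where CHR matches were most frequent, are not shown. CHR matches and NF-Y boxes are in capitals, and each sequence runs 5′ to 3′ on the strand of its gene, ending at the base before the gene start. On the minus strand lie Cdk1 (chr10:69352913-69353162), Ccnb1 (chr13:100786487-100786736) and Cdc20 (chr4:118437344-118437593). On the plus strand lie Plk1 (chr7:122159185-122159434), Cenpa (chr5:30666636-30666885) and Kif11 (chr19:37376132-37376381).
Cdk1: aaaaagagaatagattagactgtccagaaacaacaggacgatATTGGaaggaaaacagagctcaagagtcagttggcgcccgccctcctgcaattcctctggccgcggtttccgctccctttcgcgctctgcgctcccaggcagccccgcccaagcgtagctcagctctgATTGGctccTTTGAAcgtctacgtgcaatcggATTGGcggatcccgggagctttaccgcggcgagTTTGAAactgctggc
Ccnb1: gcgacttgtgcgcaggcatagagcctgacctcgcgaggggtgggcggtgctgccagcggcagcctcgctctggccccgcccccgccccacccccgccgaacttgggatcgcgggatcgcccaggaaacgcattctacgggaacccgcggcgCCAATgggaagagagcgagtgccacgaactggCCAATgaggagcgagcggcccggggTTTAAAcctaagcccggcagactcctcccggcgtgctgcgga
Plk1: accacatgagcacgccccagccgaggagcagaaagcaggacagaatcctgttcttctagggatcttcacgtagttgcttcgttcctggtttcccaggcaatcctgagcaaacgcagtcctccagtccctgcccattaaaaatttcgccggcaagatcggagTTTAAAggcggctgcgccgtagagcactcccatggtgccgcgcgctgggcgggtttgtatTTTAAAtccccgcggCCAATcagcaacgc
Cenpa: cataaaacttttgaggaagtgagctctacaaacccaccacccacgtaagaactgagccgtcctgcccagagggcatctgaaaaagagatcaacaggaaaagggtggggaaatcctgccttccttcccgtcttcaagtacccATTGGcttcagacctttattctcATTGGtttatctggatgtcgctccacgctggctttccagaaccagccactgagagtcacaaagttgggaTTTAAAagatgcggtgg
Kif11: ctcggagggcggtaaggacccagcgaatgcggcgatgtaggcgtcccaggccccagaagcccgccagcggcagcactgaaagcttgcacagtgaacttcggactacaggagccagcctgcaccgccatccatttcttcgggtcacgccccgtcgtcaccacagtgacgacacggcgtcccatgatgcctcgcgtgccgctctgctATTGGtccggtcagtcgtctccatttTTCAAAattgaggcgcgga
Cdc20: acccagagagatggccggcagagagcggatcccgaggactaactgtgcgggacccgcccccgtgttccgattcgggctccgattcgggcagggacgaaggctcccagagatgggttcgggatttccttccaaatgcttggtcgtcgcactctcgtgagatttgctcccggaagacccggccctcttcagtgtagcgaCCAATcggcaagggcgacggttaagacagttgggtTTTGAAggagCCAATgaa

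Markers of the tissue were checked first. Krt14 and Krt5, keratins of basal epithelium, were at 6048 ± 1653 and 3061 ± 622 TPM (SD, n = 5) in N epithelia, and all 5 epithelial markers (Krt5, Krt14, Trp63, Epcam and Cdh1) were above 0 in each group. Krt14, Epcam and Cdh1 rose in EY epithelia, with log2 fold changes of 1.43, 1.85 and 1.16 (limma, adjusted p = 0.000402, 2.06e-05 and 9.95e-06), while Trp63, a factor of basal cells, was at 7.68 TPM in N and 7.69 TPM in EY epithelia. The 5 markers summed to 12586, 10137, 7666, 7933 and 7409 TPM in the N mice, 9836, 14166, 10217, 12355 and 8028 in the E mice, 30212, 15252 and 17621 in the Y mice, and 15021 to 31651 with a median of 24453 in the EY mice.

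Markers of other cells were present as well. The 7 lymphocyte and leukocyte markers summed to between 1.33 and 6.86 TPM for N mice, 0.895 and 6.58 for E, 1.60 and 3.58 for Y and 3.34 and 9.64 for EY mice, with Cd79a, Cd8a, Ptprc and Cd8a the most abundant. Calls of single markers are not given here for this list. The 8 myeloid markers summed to 779, 265, 127, 123 and 100.5 TPM in the N mice, 306, 273, 279, 42.3 and 536 in the E mice, 822, 1011 and 592 in the Y mice, and 263 to 1043 with a median of 790.5 in the EY mice. S100a8 and S100a9, which keratinocytes can also express, rose in Y and EY epithelia (S100a8 by 5.44 and 4.75 on the log2 scale), and S100a8 was the most abundant of the list there. In Y against N, the other 6 markers were not called and lay at or below 0, down to -2.74. The median log2 fold change of the 8 was -0.24 there. Ly6g, a neutrophil marker, was listed at 0 in all N, E and Y mice and in EY mouse 6 and reached 2.31 TPM in EY mouse 4. Because Ly6g passed the filter on low values through EY mice alone, its calls as higher in EY restate these values and are no test. Cd207, a marker of Langerhans cells, fell in EY by 1.86 on the log2 scale. In EY against N, 6 of the 8 myeloid markers, Ly6g among them, lay above 0 and 2 below, with a median of 0.61. The 5 fibroblast markers summed to between 58.4 and 270.0 TPM for N mice, 57.0 and 93.8 for E, 21.3 and 39.9 for Y and 21.3 and 133 for EY mice, and Dcn, the most abundant of them in N, fell in EY by 2.36, while the other 4 were not called and had log2 fold changes of 0.32 to 1.08. All 5 fibroblast markers lay below 0 in Y (-1.86 to -1.02) and in E (-0.76 to -0.28) against N, and none was called there. The 3 endothelial markers summed to at most 2.83 TPM in any mouse. The 5 skeletal muscle markers summed to 55.5, 220.2, 10.7, 36.7 and 46.9 TPM in the N mice, and to between 11.1 and 119 for E, 6.89 and 127 for Y and 32.7 and 1193 for EY mice, with Acta1 the most abundant and EY mouse 3 at the top, and none of the 5 was called. All 5 muscle markers lay above 0 in EY against N, with log2 fold changes of 1.52 to 2.05 and no unadjusted p below 0.05 (limma). In EY against Y and E they were at 1.82 to 3.58 and 2.08 to 2.76. The unadjusted p was below 0.05 for 4 of the 5 in each (limma, 80.0%, against 23.9% and 43.6% of all genes tested). In Y and E against N all 5 lay below 0. The part of all these cell types in the levels of the mitotic genes was not tested.

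Taken as a sum, the 55 mitotic genes were at 268, 359, 261, 243 and 279 TPM in N mice 1 to 5, and at 739, 803, 956, 1068 and 938 TPM in the 5 E mice. They reached 975, 1053 and 1184 TPM in the 3 Y mice and 1898 to 2259 TPM with a median of 2169 in the 6 EY mice. Every E and Y mouse lay above every N mouse, every EY mouse above all others, and the E and Y mice overlapped. Their share of all reads lay between 0.0947% and 0.128% for N mice, 0.257% and 0.373% for E, 0.298% and 0.370% for Y and 0.615% and 0.727% for EY mice. In this whole tissue, more dividing cells and more RNA per dividing cell cannot be told apart.

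**Figure D2:**
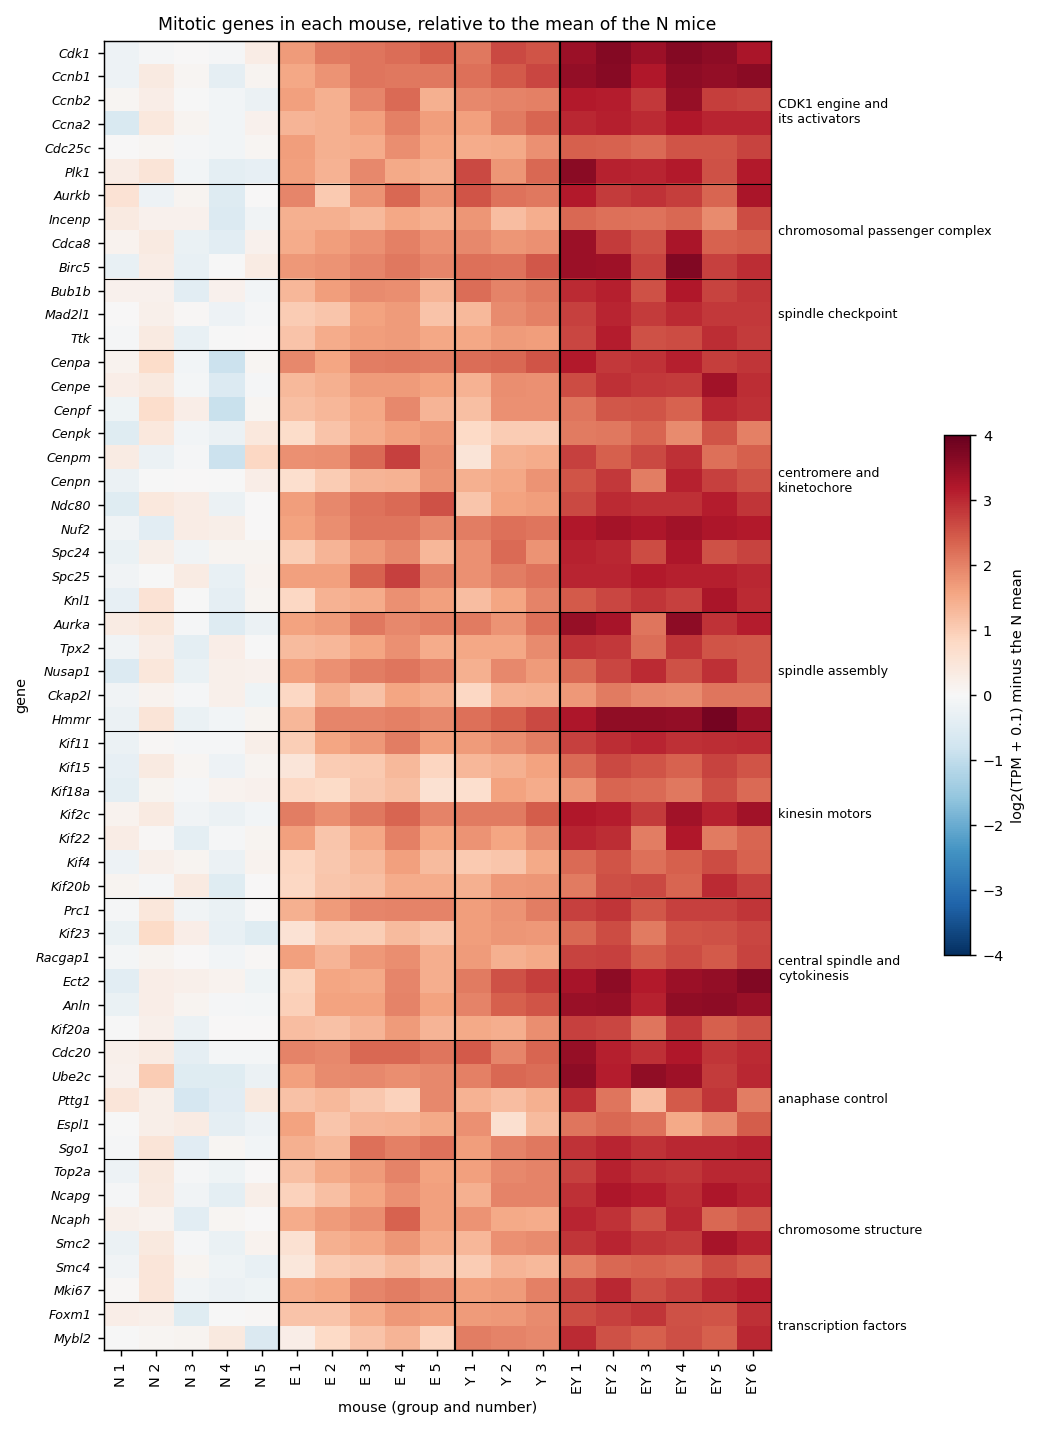
Level of each of the 55 mitotic genes (rows, grouped by role) in each of the 19 mice (columns), as log2(TPM + 0.1) relative to the average N mouse. All genes have their lowest group mean in N and their highest in EY epithelia, with the E and Y means between, while single mice of different groups overlap in some genes.

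A gene was called when limma gave a Benjamini-Hochberg adjusted p below 0.01 over all genes tested and an absolute log2 fold change above 1, on the scale of log2(TPM + 0.1), which understates the changes of genes with few transcripts. In EY against N epithelia, all 55 genes were called higher, where 12.6% of all genes tested were called higher, with a median log2 fold change of 2.86. In Y against N, 52 of the 55 rose (3.47% of all genes tested), with a median of 1.78, and in E against N 49 rose (1.16% of all genes tested), with a median of 1.58. None was called lower in these comparisons, which share the same N mice. The values of every EY mouse exceeded those of every N mouse in all 55 genes (20.9% of all genes tested). Every Y mouse exceeded every N mouse in 54 genes (15.5% of all genes tested), the exception being Cenpm, and every E mouse did so in 52 genes (3.93% of all genes tested), the exceptions being Kif23, Smc4 and Mybl2.

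Across all genes tested, the median log2 fold change was itself 0.33, 0.13 and 0.07 in EY, Y and E. With median-of-ratios scaling of each mouse, which brought these to 0.01, -0.03 and -0.02, the medians of the mitotic genes were 2.49, 1.59 and 1.47, and 55, 52 and 49 of them were called higher. Over all genes tested, 1542, 524 and 224 were then called higher, against 2858, 790 and 264 before. Of all genes called, 68.8% were higher in EY and 75.8% in Y epithelia, and after this scaling 43.9% and 57.2%.

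**Figure D3:**
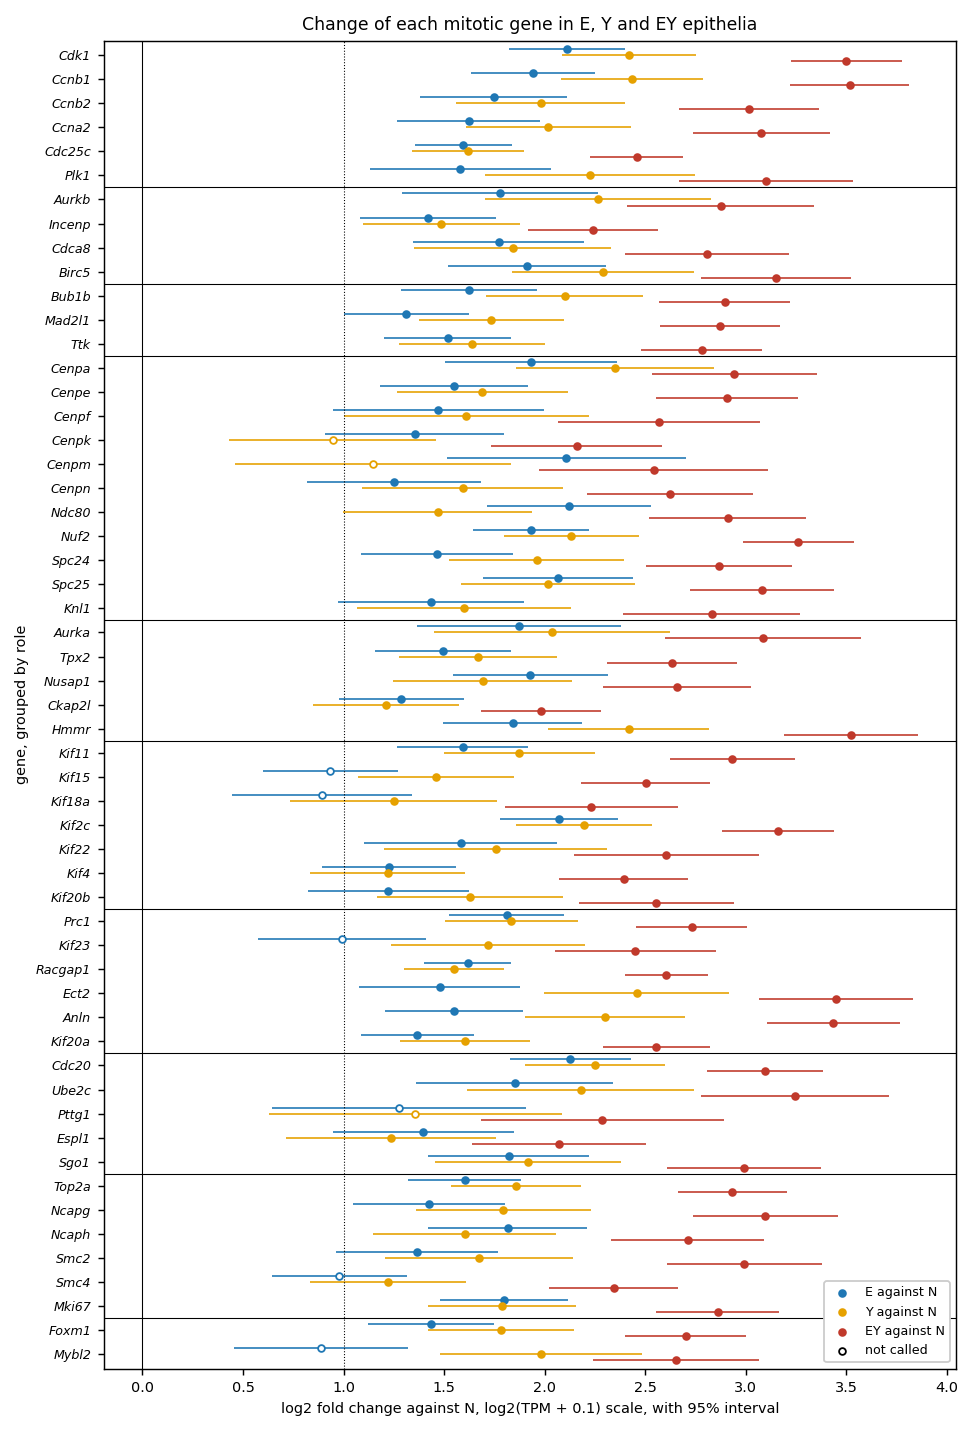
Log2 fold change of each mitotic gene against N (x axis, with 95% interval from limma) in E (blue), Y (yellow) and EY (red) epithelia, grouped by role along the y axis. Filled points were called and open points were not, and the dotted line marks a log2 fold change of 1.

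The CDK1 engine comprises Cdk1, its cyclins Ccnb1, Ccnb2 and Ccna2, the phosphatase Cdc25c that activates CDK1, and the kinase Plk1. All 6 rose in EY, Y and E epithelia. Cdk1 was at 4.03, 4.48, 4.64, 4.45 and 5.70 TPM in N, 15.3, 19.7, 20.9, 21.9 and 25.1 TPM in E and 20.1, 29.4 and 27.1 TPM in Y mice, and at 45.04 to 60.3 TPM with a median of 53.6 in EY mice. The highest N mouse was mouse 5, no group overlapped N, and every EY mouse was above every E and Y mouse. The log2 fold changes were 2.11, 2.42 and 3.50 in E, Y and EY (limma, standard errors 0.14, 0.16 and 0.13, adjusted p = 1e-07, 2.31e-07 and 3.3e-11). Ccnb1, the cyclin that triggers entry into mitosis, was at 12.7, 19.01, 15.5, 11.4 and 15.97 TPM in N, 43.2, 51.7, 64.5, 63.5 and 64.2 TPM in E and 67.7, 80.1 and 93.8 TPM in Y mice, and at 137 to 185 TPM with a median of 174 in EY mice. EY mouse 3 was the lowest of its group, yet above every Y mouse. The log2 fold change of Ccnb1 in EY, 3.52 (standard error 0.14, adjusted p = 3.3e-11 from limma), was, with that of Hmmr, the largest of the 55 genes. Plk1, a kinase of centrosomes, kinetochores and cytokinesis, was at 3.28, 3.82, 2.45, 1.98 and 2.07 TPM in N, 8.35, 7.14, 10.2, 7.75 and 7.27 TPM in E and 16.9, 9.13 and 13.2 TPM in Y mice, and at 15.7 to 33.5 TPM with a median of 23.7 in EY mice. The lowest EY mouse fell below the highest Y mouse here. Ccna2 had the highest mean level of the 55 genes in both N (23.03 ± 5.65 TPM) and EY epithelia (190.2 ± 10.6 TPM).

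**Figure D4:**
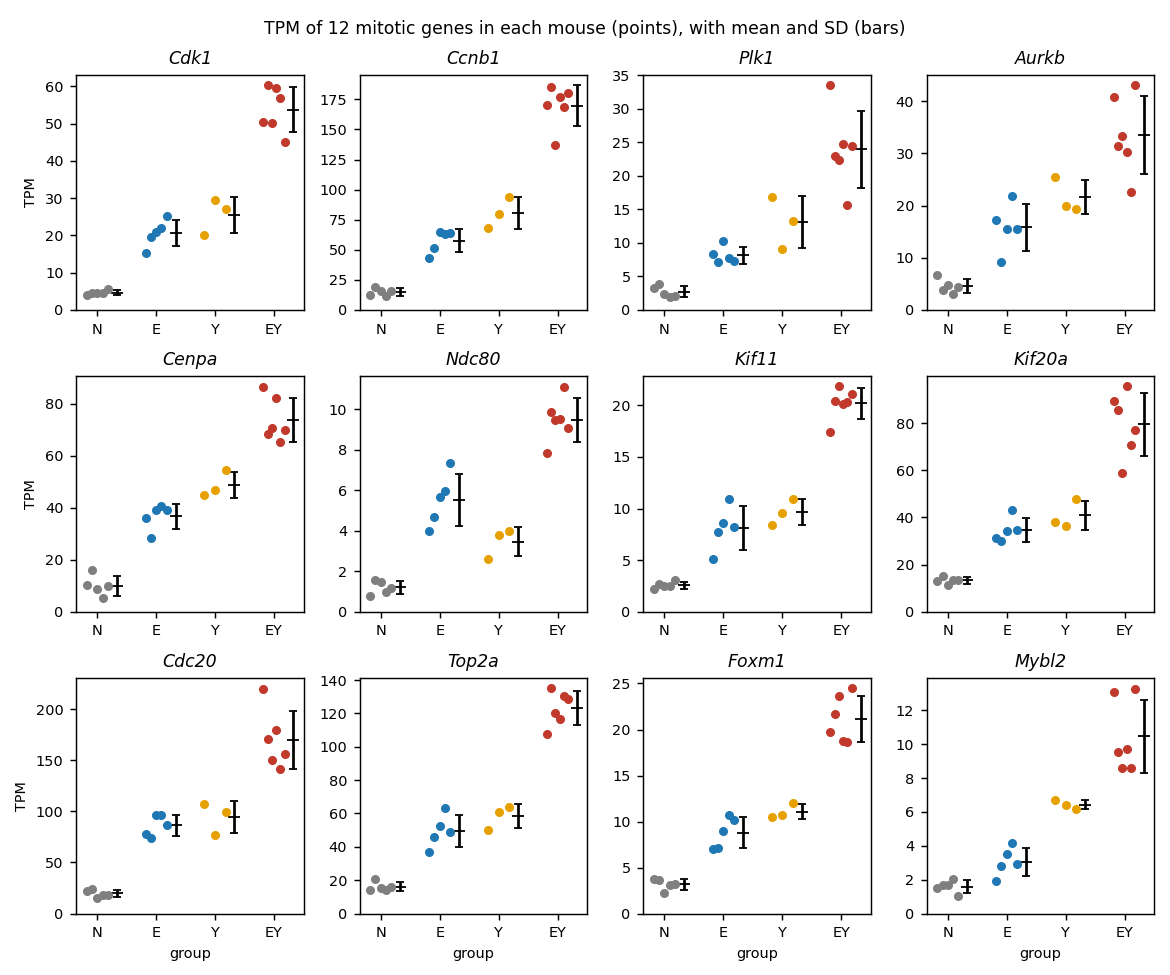
TPM (y axis, from 0) of 12 mitotic genes in each mouse of the N, E, Y and EY groups (x axis), with the mean and SD of each group as black bars (n = 5, 5, 3 and 6). Every Y mouse lies above every E mouse for Ccnb1, Cenpa and Mybl2 and below every E mouse for Ndc80, and the E and Y mice overlap for the other genes.

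The chromosomal passenger complex, which corrects faulty attachments and guides cytokinesis, consists of the kinase Aurkb with Incenp, Cdca8 and Birc5. Its 4 genes rose in all comparisons with N. The kinase Aurkb was at 6.63, 3.80, 4.78, 3.02 and 4.42 TPM in N, 17.3, 9.15, 15.5, 21.8 and 15.5 TPM in E and 25.4, 19.95 and 19.4 TPM in Y mice, and at 22.5 to 43.1 TPM with a median of 32.3 in EY mice. EY mouse 5 was below Y mouse 1, so that these groups overlapped, and its log2 fold change was 2.88 in EY and 1.78 in E. Birc5 (survivin) was at 7.20, 11.01, 7.19, 8.79 and 11.2 TPM in N, 30.1, 31.4, 34.6, 38.9 and 34.8 TPM in E and 40.99, 40.9 and 50.7 TPM in Y mice, and at 58.6 to 118 TPM with a median of 82.1 in EY mice. EY mice 3, 5 and 6 were below EY mice 1, 2 and 4, and all were above the Y mice. Incenp, the scaffold, changed least of the complex, with log2 fold changes of 1.42, 1.49 and 2.24 in E, Y and EY.

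The spindle checkpoint delays anaphase until all chromosomes are attached. Its genes Bub1b, Mad2l1 and Ttk rose by 2.89, 2.87 and 2.78 in EY epithelia, by 2.10, 1.74 and 1.64 in Y and by 1.62, 1.31 and 1.52 in E epithelia. Mad2l1, whose product inhibits CDC20, was the most abundant of them, at 5.64 ± 0.586 TPM in N and 41.9 ± 3.35 TPM in EY epithelia.

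Centromere and kinetochore genes made up the largest role, with 11 genes. All 11 rose in EY and in E epithelia, and 9 in Y, where Cenpk (log2 fold change 0.95, adjusted p = 0.0127) and Cenpm (1.14, adjusted p = 0.0223, both limma) were not called. Cenpa, the histone H3 variant that marks the centromere, was at 10.5, 15.9, 8.82, 5.19 and 9.92 TPM in N, 36.1, 28.4, 39.2, 40.6 and 39.1 TPM in E and 45.1, 46.7 and 54.7 TPM in Y mice, and at 65.5 to 86.5 TPM with a median of 70.3 in EY mice. The groups followed each other without overlap from N over E and Y to EY, and the N mice themselves spanned a wide range, with mouse 2 high and mouse 4 low. Ndc80, which binds the microtubule, was at 0.797, 1.58, 1.46, 0.976 and 1.19 TPM in N, 3.97, 4.65, 5.66, 5.98 and 7.34 TPM in E and 2.63, 3.78 and 3.97 TPM in Y mice, and at 7.81 to 11.1 TPM with a median of 9.49 in EY mice. Its mean was higher in E than in Y, unlike that of Cenpa, and every EY mouse was above all others. Its log2 fold change was 2.12 in E and 1.47 in Y (limma, adjusted p = 3.28e-06 and 0.000255). Cenpk, part of the inner kinetochore, was at 0.958, 1.85, 1.26, 1.14 and 1.84 TPM in N, 2.35, 3.16, 3.97, 4.50 and 4.82 TPM in E and 2.43, 2.88 and 2.88 TPM in Y mice, and at 5.37 to 8.28 TPM with a median of 6.12 in EY mice. All Y mice were above the N mice, the highest of which reached 1.85 TPM, and Y overlapped E. Knl1, the scaffold on which checkpoint proteins assemble, was at 0.966, 1.87, 1.23, 0.935 and 1.35 TPM in N, 2.28, 3.41, 3.60, 4.63 and 4.03 TPM in E and 3.06, 3.84 and 5.17 TPM in Y mice, and at 7.23 to 12.6 TPM with a median of 9.12 in EY mice. Its Y and E mice overlapped and its EY mice stood above both. Leaving out N mouse 2 or 5 brought Cenpk above the thresholds in Y (log2 fold change 1.05 and 1.05, adjusted p = 0.00828 and 0.0096), and leaving out N mouse 5 did the same for Cenpm (1.35, limma, adjusted p = 0.00718).

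Genes of spindle assembly are the kinase Aurka, its activator Tpx2 and the microtubule-associated Nusap1, Ckap2l and Hmmr. All 5 rose in each comparison with N. Hmmr was at 1.74, 2.95, 1.68, 1.89 and 2.22 TPM in N, 5.34, 8.27, 8.17, 8.68 and 8.09 TPM in E and 9.84, 11.3 and 13.3 TPM in Y mice, and at 20.2 to 30.6 TPM with a median of 24.7 in EY mice. E mouse 1 was below its group, and no group overlapped another. Ckap2l had the smallest change of all 55 genes in EY, where it was at 28.4 to 37.7 TPM with a median of 34.4, against 7.74, 9.50, 8.27, 9.74 and 7.55 TPM in N, 15.1, 23.2, 19.2, 25.4 and 23.6 TPM in E and 15.04, 22.5 and 23.1 TPM in Y mice. Its E and Y mice overlapped, and its log2 fold change in EY was 1.98 (standard error 0.14, limma, adjusted p = 9.7e-09), against 3.52 for Hmmr.

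Kinesin motors slide and shorten spindle microtubules and move chromosomes. All 7 rose in EY and Y epithelia and 5 in E, where Kif15 (0.93, adjusted p = 0.00183) and Kif18a (0.89, limma, adjusted p = 0.0238) were not called. Kif11, which pushes the spindle poles apart, was at 2.16, 2.66, 2.49, 2.48 and 3.04 TPM in N, 5.10, 7.75, 8.62, 10.96 and 8.18 TPM in E and 8.44, 9.60 and 10.9 TPM in Y mice, and at 17.4 to 21.8 TPM with a median of 20.4 in EY mice. The lowest EY mouse was above all E and Y mice, and its log2 fold change in EY was 2.93 (limma, adjusted p = 2.5e-10). Kif2c, which takes microtubules apart at kinetochores, had the largest changes among the motors, 2.07 in E, 2.20 in Y and 3.16 in EY. Kif18a had the lowest level of the 55 genes in each group, with 0.547 ± 0.0996 TPM in N and 2.95 ± 0.536 TPM in EY epithelia. Kif15 was called in E without N mouse 2 (1.02, adjusted p = 0.00105) or E mouse 1 (1.04, limma, adjusted p = 0.000419), and Kif18a was no longer called in Y without Y mouse 2 (1.08, adjusted p = 0.0171) or 3 (1.14, adjusted p = 0.0191).

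Central spindle and cytokinesis genes form the midzone (Prc1, Kif23, Racgap1, Kif20a), activate RhoA (Ect2) and organize the contractile ring (Anln). All 6 rose in EY and Y and 5 in E, Kif23 being just under the limit there (0.99, adjusted p = 0.00712, limma). Kif20a was at 13.1, 15.2, 11.4, 13.5 and 13.4 TPM in N, 31.4, 29.98, 34.4, 43.1 and 34.5 TPM in E and 38.1, 36.5 and 48.01 TPM in Y mice, and at 58.8 to 95.7 TPM with a median of 81.4 in EY mice. Its E and Y mice overlapped, and its EY mice were above both. Ect2 was at 1.13, 1.84, 1.76, 1.68 and 1.34 TPM in N, 2.91, 4.72, 4.59, 6.18 and 4.38 TPM in E and 6.75, 9.33 and 10.95 TPM in Y mice, and at 14.4 to 21.2 TPM with a median of 17.9 in EY mice. All Y mice were above all E mice, and its log2 fold change of 2.46 was the largest of the 55 genes in Y epithelia. Anln was at 3.29, 4.70, 4.23, 3.85 and 3.73 TPM in N, 7.64, 12.2, 12.2, 15.8 and 12.2 TPM in E and 15.95, 20.95 and 23.1 TPM in Y mice, and at 33.8 to 48.1 TPM with a median of 44.9 in EY mice. Again the Y mice lay above the E mice, and EY mouse 3 was the lowest of its group. Kif23 was called in E when N mouse 2 (1.18, adjusted p = 0.000288), N mouse 3 (1.06, adjusted p = 0.00851) or E mouse 1 (1.10, limma, adjusted p = 0.00346) was left out.

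Anaphase is set off by the anaphase-promoting complex with its activator Cdc20 and its E2 enzyme Ube2c, which frees separase (Espl1) from securin (Pttg1), while Sgo1 protects cohesin at centromeres until then. All 5 rose in EY and 4 each in Y and E, with Pttg1 not called in Y (1.36, adjusted p = 0.012) or E (1.27, limma, adjusted p = 0.0225). Cdc20 was at 22.4, 24.5, 15.2, 18.6 and 18.4 TPM in N, 78.02, 73.9, 96.7, 96.9 and 86.2 TPM in E and 107, 76.8 and 99.5 TPM in Y mice, and at 142 to 220.2 TPM with a median of 163 in EY mice. E and Y mice overlapped, and its log2 fold change in E, 2.13, was the largest of the 55 genes there (standard error 0.14, limma, adjusted p = 1.06e-07). Pttg1 was called in Y without EY mouse 1 (adjusted p = 0.00997) or 3 (0.00414) and in E without EY mouse 3 (limma, adjusted p = 0.00723), as all groups share the estimate of the spread. Espl1 was not called in Y without Y mouse 1 (0.95, adjusted p = 0.0198) or 3 (1.22, limma, adjusted p = 0.0145).

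Chromosome structure is shaped by topoisomerase II (Top2a), the condensin subunits Smc2, Smc4, Ncapg and Ncaph, and Mki67, which coats mitotic chromosomes and is the proliferation marker Ki-67. All 6 rose in EY and Y and 5 in E, where Smc4 was at a log2 fold change of 0.98. Top2a was at 13.9, 20.8, 15.6, 14.3 and 16.2 TPM in N, 36.7, 45.98, 52.5, 63.6 and 48.7 TPM in E and 50.3, 61.00 and 64.00 TPM in Y mice, and at 108 to 135 TPM with a median of 125 in EY mice. Mki67 was at 21.95, 29.96, 19.4, 18.1 and 18.9 TPM in N, 59.7, 64.2, 82.6, 87.6 and 81.4 TPM in E and 66.5, 70.2 and 85.7 TPM in Y mice, and at 128 to 188 TPM with a median of 157 in EY mice. For both genes N mouse 2 was the highest of the controls, E and Y overlapped, and the EY mice stood apart. Smc2 was at 2.93, 4.61, 3.37, 2.91 and 3.88 TPM in N, 5.40, 9.51, 10.4, 12.03 and 9.89 TPM in E and 8.90, 12.5 and 13.1 TPM in Y mice, and at 24.8 to 35.4 TPM with a median of 27.9 in EY mice. Ncapg was at 2.46, 3.33, 2.30, 1.91 and 3.06 TPM in N, 4.90, 6.05, 7.77, 9.28 and 8.13 TPM in E and 7.02, 10.4 and 10.4 TPM in Y mice, and at 20.3 to 24.9 TPM with a median of 23.01 in EY mice. In both condensin genes E mouse 1 and Y mouse 1 were the lowest of their groups, and the lowest EY mouse was far above the highest Y mouse. Smc4 was called in E without N mouse 2 (1.10, adjusted p = 0.000282), N mouse 3 (1.01, adjusted p = 0.00262) or E mouse 1 (1.11, limma, adjusted p = 0.000143).

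Of the transcription factors that switch on G2 and M genes, Foxm1 rose in EY, Y and E epithelia and Mybl2 in EY and Y. Foxm1 was at 3.80, 3.60, 2.23, 3.10 and 3.24 TPM in N, 7.07, 7.08, 9.01, 10.7 and 10.1 TPM in E and 10.5, 10.7 and 11.99 TPM in Y mice, and at 18.6 to 24.5 TPM with a median of 20.7 in EY mice. Its E and Y mice overlapped in a single E mouse. Mybl2 (B-MYB) was at 1.54, 1.66, 1.68, 2.05 and 1.02 TPM in N, 1.90, 2.79, 3.52, 4.15 and 2.93 TPM in E and 6.71, 6.39 and 6.20 TPM in Y mice, and at 8.62 to 13.3 TPM with a median of 9.62 in EY mice. E mouse 1 lay within the range of the N mice, and every Y mouse was above every E mouse. The log2 fold change of Mybl2 in E was 0.89 (standard error 0.21, limma, adjusted p = 0.0201), the lowest of the 55 genes together with Kif18a, and without E mouse 1 it was called (1.04, adjusted p = 0.00353). The promoter window of Mybl2 held none of the exact sequences searched, and Foxm1 had no window to search.

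Some calls against N rested on a setting. With a fit of only the compared groups, Cenpf, Ndc80, Knl1, Kif18a, Kif4 and Espl1 were not called in Y (limma, adjusted p = 0.0242, 0.0158, 0.0125, 0.0377, 0.0137 and 0.0374) and Cenpf, Cenpk, Cenpn, Knl1, Kif4, Kif20b and Smc2 not in E (limma, adjusted p = 0.0226, 0.0251, 0.0167, 0.0153, 0.0102, 0.0144 and 0.0129). A pseudocount of 1 TPM took Kif18a, Kif4 and Espl1 under the limit in Y (0.66, 0.83 and 0.93) and Cenpk, Cenpn, Kif4 and Kif20b in E (0.97, 0.92, 0.83 and 0.87), and quantile normalization Ckap2l and Smc4 in Y (0.99 and 0.95). Against only 3 N mice, Espl1 was not called in Y (limma, adjusted p = 0.0216), nor were Cenpf, Kif20b and Espl1 in E (0.0146, 0.0118 and 0.0151, limma).

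N mouse 2 had the highest N value in 35 of the 55 genes, E mouse 1 the lowest E value in 40, E mouse 4 the highest E value in 42, Y mouse 1 the lowest Y value in 38 and Y mouse 3 the highest in 34. EY mouse 3 was the lowest of its group in 21 genes, and EY mouse 2 in none. E mouse 4 also had the lowest sum of myeloid markers of the E mice (42.3 TPM) and EY mouse 3 the highest sum of muscle markers of all mice (1193 TPM), and their part in these differences was not tested.

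What E6-E7 adds to active YAP was asked by EY against Y. In this comparison 26 of the 55 genes were called higher, where 1.07% of all genes tested were, none lower, and the median log2 fold change was 1.03. Ndc80, Smc2, Ncapg and Knl1 had the largest changes among those called, 1.44, 1.32, 1.30 and 1.23 (limma, adjusted p = 0.000749, 0.00122, 0.000835 and 0.00489). All 6 chromosome structure genes and 7 of the 11 centromere and kinetochore genes were called, none of the 4 passenger complex genes was, and neither was Foxm1 or Mybl2. The passenger complex genes were at 0.61 to 0.97, and Mybl2 and Foxm1 at 0.67 and 0.92. All 55 genes lay above 0 with an unadjusted p below 0.05 (limma), where 23.9% of all genes tested had such a p. Every EY mouse exceeded every Y mouse in 50 genes (11.1% of all genes tested), the exceptions being Plk1, Aurkb, Aurka, Pttg1 and Espl1. The count was 6 after median-of-ratios scaling and 11 after quantile normalization, with a median of 0.86 in both. It was 6 without Y mouse 1 and 16 without Y mouse 2, where Smc2 (adjusted p = 0.0138 without Y mouse 1) and Knl1 (limma, adjusted p = 0.0436 and 0.0234) were no longer called. Over all genes tested, 243 were called higher at first, 123 and 126 after these scalings, and 83 and 139 without Y mouse 1 and 2. A fit of the EY and Y mice alone also ended the call of Knl1 (limma, adjusted p = 0.0141).

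What active YAP adds to E6-E7 was asked by EY against E. Here 42 of the 55 genes were called higher (7.82% of all genes tested) and none lower, with a median log2 fold change of 1.26. The largest changes were those of the cytokinesis genes Ect2 and Anln, 1.97 and 1.89, of Mybl2, 1.77, and of Hmmr, 1.68 (limma, adjusted p = 3.38e-07, 1.16e-07, 2.37e-06 and 3.74e-07). All 7 kinesin motors were called. Every EY mouse exceeded every E mouse in 51 genes (17.6% of all genes tested), the exceptions being Cenpm, Pttg1, Espl1 and Ncaph. After quantile normalization 27 genes were called, and 28 after median-of-ratios scaling. Over all genes tested, 1043 and 1001 were then called higher, against 1779 before.

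The single transgenes were compared directly in Y against E. A single gene of the 55 was called, Mybl2, where 2.48% of all genes tested were called in either direction. Its log2 fold change was 1.09 (95% interval 0.59 to 1.59, limma, adjusted p = 0.00701), and over the alternatives its adjusted p ranged from 0.00201 to 0.0375. It was not called without E mouse 1, 2 or 5 (adjusted p = 0.0144, 0.0148 and 0.0147) or without any of the 3 Y mice (0.0269, 0.0278 and 0.0303, limma), nor with a pseudocount of 1 TPM (log2 fold change 0.90), quantile normalization (adjusted p = 0.0104) or a fit of the Y and E mice alone (0.0375, limma). Ect2 was called in its place without Y mouse 1 (log2 fold change 1.17, limma, adjusted p = 0.00641) and beside it without E mouse 4 (1.10, adjusted p = 0.00432). With all mice, Ect2 had an adjusted p of 0.00857 (limma) with a log2 fold change of 0.98, just under the limit (95% interval 0.52 to 1.44). The log2 fold change leaned to Y in 44 of the 55 genes and to E in 11, and it was above 0 in 52.9% of all genes tested. The unadjusted p was below 0.05 for 13 of the 55 genes (23.6%), close to the 23.3% of all genes tested, with 11 higher in Y and 2 in E. Those 2 were the kinetochore genes Cenpm (-0.96, 95% interval -1.65 to -0.28) and Ndc80 (-0.65, 95% interval -1.12 to -0.18), neither of which was called. For Mki67 the difference was -0.01 with a 95% interval of -0.38 to 0.36.

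**Figure D5:**
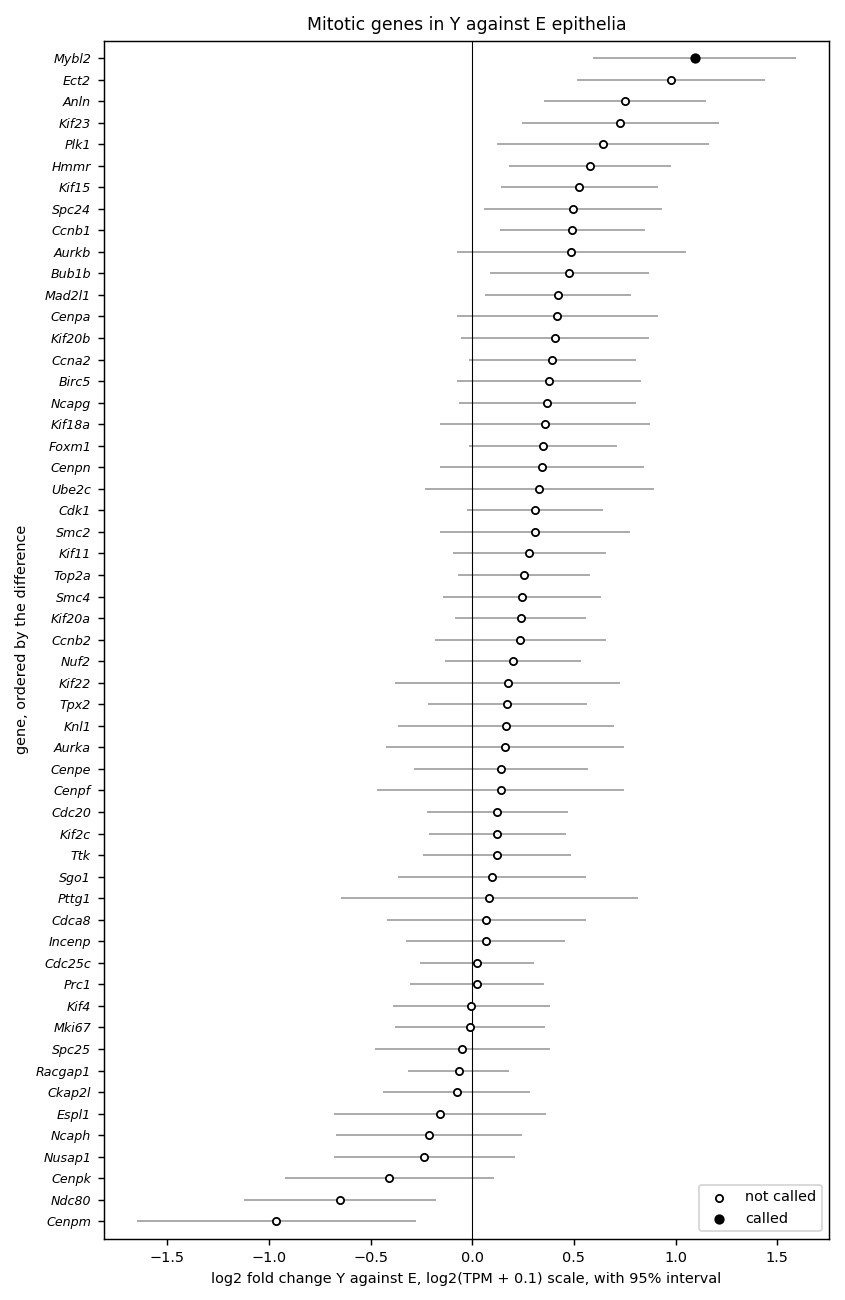
Log2 fold change of each mitotic gene in Y against E epithelia (x axis, with 95% interval from limma), ordered by the difference along the y axis. Mybl2 (filled point) was called and the 54 open points were not, with Ect2, Anln and Kif23 at the Y end and Cenpm and Ndc80 at the E end.

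Whether the combined change differed from the sum of the single changes was tested on the log2 scale by the interaction EY - E - Y + N. Only Cdc20 was called, with an interaction of -1.29 (standard error 0.21, limma, adjusted p = 0.00793), where 0.176% of all genes tested were called in either direction. Its call was lost in 14 of the 19 fits without 1 mouse, namely those without N mouse 1, 3, 4 or 5 (limma, adjusted p = 0.0103, 0.0136, 0.0189 and 0.0172), E mouse 1, 3, 4 or 5 (0.0124, 0.0204, 0.0163 and 0.0165), Y mouse 1 or 3 (0.0354 and 0.0383) and EY mouse 2, 4, 5 or 6 (0.0145, 0.0119, 0.0122 and 0.0154), with an estimate of at least -1.34 and at most -1.19. It was also lost with only 3 N mice (-1.23, limma, adjusted p = 0.0386), and without N mouse 2 a total of 3 genes were called. Over all alternatives the adjusted p of Cdc20 ranged from 0.00123 to 0.0394. The estimate was below 0 in 52 of the 55 genes (94.5%, against 44.5% of all genes tested), with a median of -0.56, and above 0 in Kif15, Kif18a and Smc4. On the TPM scale, the mean of EY epithelia was above E + Y - N in 54 of the 55 genes (98.2%, against 62.6% of all genes tested), with Cenpa as the exception, and the median ratio of the 2 was 1.29. For Cdk1 the EY mean was 53.7 TPM, against 41.5 for E + Y - N and 113 for E × Y / N. These ratios describe the group means and were not tested.

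Genes beyond the list were drawn from lists chosen for the same pathway. Of 76 other mitotic genes with values, 66, 50 and 47 rose in EY, Y and E epithelia (86.8%, 65.8% and 61.8%, against 12.6%, 3.47% and 1.16% of all genes tested), with median log2 fold changes of 2.32, 1.39 and 1.24, and none fell. The largest changes in EY were those of Cep55 (3.60), which recruits the machinery of abscission, Ska1 (3.49), which couples kinetochores to microtubules, and the kinase substrate binder Shcbp1 (3.33). Kifc1, a minus-end directed kinesin, was the only one of the 76 called for the interaction (1.32%, against 0.176% of all genes tested), at -1.78 (limma, adjusted p = 0.00167), with means of 1.56, 7.98, 7.58 and 10.8 TPM in N, E, Y and EY epithelia. Of the 16 other anaphase-promoting complex genes, 5 rose in EY epithelia (31.2%, against 12.6% of all genes tested), 2 in Y (12.5%, against 3.47%) and 1 in E (6.25%, against 1.16%), with a median of 0.83 in EY. Ube2s (1.64), Cdc23 (1.59) and Anapc11 (1.35) changed most. Both a CHR and an NF-Y box were present in none of the 18 promoter windows of this list, in 38.6% of the 70 windows of the other mitotic genes and in 18.9% of the 37 windows of G1/S and replication genes, against 10.7% of all windows.

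Among 12 genes of the DREAM complex, the MuvB core and NF-Y, 6 rose in EY, against 12.6% of all genes tested, led by Lin9 (1.58), Tfdp1 (1.40) and Rbl1 (1.18), and none was called in Y or E (limma), where the unadjusted p was below 0.05 for 7 and 8 genes (58.3% and 66.7%, against 28.9% and 14.8% of all genes tested). Of 5 genes that restrain the cycle through p53 and RB, 1 rose in EY, where 12.6% of all genes tested did. This was Cdkn2a (log2 fold change 1.88, limma, adjusted p = 0.0039), from a mean of 0.0457 TPM in N to 0.508 TPM. Its log2 fold change in E was 2.01, which was not called (limma, adjusted p = 0.0311). Cdkn1a was at 178 TPM in N and 142 TPM in EY epithelia. Of 38 genes of the G1/S transition and DNA replication, which precede mitosis in the cycle, 35 rose in EY epithelia (92.1%, against 12.6% of all genes tested), 6 in Y (15.8%, against 3.47%) and 18 in E (47.4%, against 1.16%), with medians of 1.78, 0.74 and 1.00. Rrm2 (3.26), Ccne1 (2.94) and Fen1 (2.59) changed most in EY. In Y against E, 33 of these 38 genes leaned to E, with a median of -0.32, and 44 of the 55 mitotic genes leaned to Y, with a median of 0.24. Of the 76 other mitotic genes, 45 leaned to Y (59.2%, against 52.9% of all genes tested), with a median of 0.09. Over all genes tested, 46.9% leaned to E. None of the 38 was called in that comparison (limma), in which the unadjusted p was below 0.05 for 9 (23.7%, against 23.3% of all genes tested), and the difference between the lists was not tested.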

How the data were processed

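The authors aligned paired-end reads of polyA RNA to GRCm39 with STAR 2.7.9, sorted them with SAMtools 1.7 and counted reads per gene with HTSeq 0.13.5, and deposited TPM values for each mouse. How counts became TPM, and whether counting used strand, is not given in the sources used here, so reads of overlapping genes on opposite strands may not be told apart. Each mouse sums to 1000000 TPM, and no pair of mice is identical. In all 24680 genes above 0, the TPM were whole reads times a step of the gene and a scale of the mouse (within 0.02 reads), which gave the depth. Groups follow the sample labels.

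Genes that reached 0.1 TPM in 3 or more mice (22745) were fitted with limma 3.58.1 in R 4.3.3 (lmFit, eBayes with a trend) on log2(TPM + 0.1), with the means of all 4 groups estimated together. This replaced the count-based test of the study, whose thresholds were kept. The fit was tested on simulated data. Alternatives were pseudocounts of 1 and 0.01 TPM, a filter of 1 TPM or none, quantile normalization or median-of-ratios scaling, controls restricted to the 3 N mice with Krt14-CreERT and LSL-rtTA, a fit of the compared groups alone, a replicate block by mouse number, eBayes in its robust form, a threshold of 0.05 on the adjusted p, a call without the fold change limit, limma voom on the recovered reads and leaving out each mouse.

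The members and lists were chosen with earlier results of these data known. Any member may be named. Values by mouse are given for representatives of each role, for the members with the highest and lowest change in EY, Y and E, and for members called in EY against Y, Y against E or the interaction (beyond 8, the 4 with the largest change). In other lists the 3 largest changes are named. Cell type markers came from general knowledge, and genes with a value outside these rules were named after their values were seen. Promoter windows were read from RefSeq (GRCm38.p6), apart from the GRCm39 of the alignment. Python 3.11.15, pandas 2.3.3, numpy 2.4.6 and matplotlib 3.10.9 were used for tables and figures. The transgenes were not analysed here. The result of 1 cell type marker is not reported here.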

Additional observations from a re-analysis of the deposited data

Results flagged for a closer look

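Single mice stood far from the rest of their group in 3 of 66 groups looked at, which were the N, E and EY values of the 22 genes given by mouse. Chance alone gives about 1 in 20 such groups. Ccnb1 was at 137 TPM in EY mouse 3, below the other EY mice. Anln was at 33.8 TPM in the same mouse, again below the others. Hmmr was at 5.34 TPM in E mouse 1, below the other E mice. On the log2 scale, the change of Cdc20 in EY epithelia was smaller than the sum of its changes in E and Y epithelia, with an interaction of -1.29 whose call was lost in 14 of 19 fits without 1 mouse. On the TPM scale its EY mean of 169.6 was above E + Y - N, at 161.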

How the results depend on the processing

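The count of genes called against N stayed within 1.5 times under all alternatives, at 55 of 55 in EY, 46 to 54 in Y and 42 to 53 in E, and no log2 fold change that was followed changed its sign. In EY against Y, 26 genes became 6 with median-of-ratios scaling and 11 with quantile normalization, and 6 to 31 without 1 mouse. In EY against E, 42 became 27 with quantile normalization. In Y against E, 1 gene became 0 with a pseudocount of 1 TPM, with quantile normalization and with only the groups compared, and 2 with no limit on the fold change (0 to 2 without 1 mouse), where limma gave 13 genes an unadjusted p below 0.05 and voom called 1. For the interaction, 1 gene became 2 with median-of-ratios scaling, 2 with quantile normalization, 0 with only 3 N mice, 4 at an adjusted p below 0.05 and 3 with limma voom (0 to 3 without 1 mouse). In the interaction test with limma, 32 genes had an unadjusted p below 0.05 (58.2%, against 13.5% of all genes tested). The causes were not tested.

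Other scalings moved the share of higher genes among all genes called. This share, 68.8% in EY against N, was 46.0% with quantile normalization and 57.2% with voom. It was 75.8% and 62.6% (quantile) in Y against N, 53.5%, 30.3% (median-of-ratios) and 30.1% (quantile) in EY against Y, 61.1%, 38.9% (median-of-ratios), 40.1% (quantile) and 47.9% (voom) in EY against E, and 67.5%, 56.2% (median-of-ratios) and 56.8% (voom) in Y against E. Over all alternatives it was 30.1% to 73.0% in EY against Y, the highest with only the groups compared.

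The mouse numbers showed no clear pairing of the mice. Over 24 pairs of the same number the correlation of deviations from the group means was -0.0426 to 0.0764. Its median was 0.0119, against -0.00751 for pairs of other numbers. Of the 19 mice, 6 matched best with their own number, and the number expected by chance was not computed. With the number as a replicate block, 55, 54 and 50 genes were called in EY, Y and E against N, 20 in EY against Y, 43 in EY against E, 1 in Y against E (Ect2, adjusted p = 0.00384, with Mybl2 at 0.0143) and 1 for the interaction (Cdk1, limma, adjusted p = 0.00662, with Cdc20 at 0.0394). Knl1 was then not called in EY against Y (limma, adjusted p = 0.0124). The Y group had 3 mice, and Kif18a, the gene with the lowest level, had 41 to 76 reads in N mice.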
